A study of Homo sapiens with 12 samples.

Results

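The BCL2 family decides at the outer mitochondrial membrane whether a cell lives or dies by apoptosis. Its transcripts were followed here through senescence and through inhibition of 2 mitochondrial carriers. The 10 members were fixed by name and fall into 3 roles: the pro-survival genes BCL2, BCL2L1 (BCL-xL), BCL2L2 (BCL-w), MCL1 and BCL2A1 (BFL-1/A1), the BH3-only genes BCL2L11 (BIM), BBC3 (PUMA) and PMAIP1 (NOXA), and the effectors BAX and BAK1. They are 10 of the 57500 genes in the count table, and 9 of them were among the 16251 genes that passed the filter on low counts. BCL2A1 was the one that did not pass.

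MRC5 cells, which are human embryonic lung fibroblasts, were sequenced as bulk RNA in 12 libraries, 4 groups of 3. Prol cells were proliferating and received neither X-rays nor inhibitor. Sen(IR) cells had been made senescent with 20 Gy of X-rays and were collected 10 to 12 days later. Sen(IR)+UK5099 cells received the same dose and, from day 1, 100 μM UK5099, an inhibitor of the mitochondrial pyruvate carrier. Sen(IR)+CTPI2 cells received the same dose and, from day 1, CTPI2, an inhibitor of the mitochondrial citrate carrier SLC25A1, for which the methods give 15 and 30 μM without saying which was sequenced. No proliferating cells with inhibitor were analysed here, so all inhibitor values are for irradiated cells of 1 line. Library totals ran from 20597736 to 28245693 counts. CDKN1A, the p21 gene, stood at 315 ± 24.6 counts per 1000000 library counts (CPM, TMM-scaled; mean ± SD, n = 3) in Prol and 1055 ± 16.2 in Sen(IR), and the nuclear lamina gene LMNB1 at 169 ± 11.6 and 8.24 ± 0.373. With UK5099 CDKN1A stood at 1098 ± 35.0, while LMNB1, at 2.51 ± 0.183, and the proliferation gene MKI67, at 0.95 ± 0.377 beside 10.97 ± 1.65 in Sen(IR) and 235 ± 32.3 in Prol, fell further (log2 differences from Sen(IR) of -1.71, edgeR adjusted p = 6.00e-11, and -3.54, adjusted p = 3.38e-12). With CTPI2 the log2 differences from Sen(IR) were -0.15 for LMNB1 (adjusted p = 0.839) and 0.18 for MKI67 (adjusted p = 0.858). The fibroblast genes COL1A1, COL1A2, COL3A1, VIM, PDGFRB and THY1 summed to between 8730 and 22300 CPM in every library, and the lowest sums, 8730 to 9400, were those with UK5099, where 4 of the 6 fell against Sen(IR). The epithelial genes EPCAM, CDH1, KRT8 and KRT18 summed to between 59.2 and 71.8 CPM in Prol, between 24.1 and 26.9 in Sen(IR), between 16.1 and 17.4 with UK5099, and between 22.7 and 24.6 with CTPI2. KRT18 was called lower in Sen(IR) than in Prol and lower again with UK5099 (log2 differences -1.71 and -1.11), and EPCAM was called higher with UK5099 than in Prol (0.86). The means of the defining genes EPCAM and CDH1 were at most 1.17 and 0.122 CPM. The endothelial genes PECAM1, VWF and CDH5 summed to at most 1.36 CPM in any library. The part of all these markers in the values that follow was not tested. The paper describes its RNA sequencing replicates as independent, and the labels name no separate cultures. The p-values measure the spread between these libraries. In bulk RNA, fewer cells expressing a gene and less RNA per cell cannot be told apart.

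Pro-survival proteins hold BAX and BAK1 in check. BH3-only proteins, which respond to particular kinds of stress, bind the pro-survival proteins in their groove, and some of them also activate BAX and BAK1 directly. Once active, BAX and BAK1 permeabilize the outer membrane, cytochrome c escapes, and caspases are switched on. Senescent fibroblasts are known for their resistance to apoptosis, and drugs that block BCL-xL and its relatives kill many senescent cell types. Much of the control of this family is on the protein, MCL1 and NOXA being short-lived, and none of that was measured here.

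BCL2L11 and PMAIP1 are both BH3-only genes, and with UK5099 one rose while the other fell, so the sequences upstream of their start sites are shown side by side. RefSeq (GRCh38.p14) gave windows of 250 bases before and 50 after the start for 8 of the 10 members, 9 windows in all, with none for BCL2L2 and MCL1. Only bases before the start that lie in no annotated exon of the gene are printed, 5′ to 3′ on the gene's strand. BCL2L11 (chr2:111120664-111120913, plus strand) lies inside the annotated span of the gene, between exons, and PMAIP1 (chr18:59899746-59899995, plus strand) lies directly before its first exon. Capitals mark GTAAACA, the core letters that FOXO factors bind, and TGACG or its reverse complement CGTCA, the cyclic AMP response half-site.
BCL2L11: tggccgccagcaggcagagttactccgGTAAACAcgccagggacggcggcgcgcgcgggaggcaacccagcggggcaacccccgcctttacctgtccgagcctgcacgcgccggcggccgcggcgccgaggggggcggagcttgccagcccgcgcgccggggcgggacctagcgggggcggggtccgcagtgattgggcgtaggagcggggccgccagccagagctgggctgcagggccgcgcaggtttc
PMAIP1: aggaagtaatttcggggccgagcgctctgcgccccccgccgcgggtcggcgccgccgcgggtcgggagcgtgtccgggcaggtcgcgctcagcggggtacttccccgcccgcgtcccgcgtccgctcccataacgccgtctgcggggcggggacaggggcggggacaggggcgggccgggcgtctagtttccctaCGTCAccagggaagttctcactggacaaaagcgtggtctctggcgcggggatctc
GTAAACA, searched on both strands, was found in 3.42% of 35116 RefSeq windows. Among the members it occurred only in the BCL2L11 window, 223 bases before the start. TGACG, on both strands, was found in 24.6% of windows, and among the members in those of PMAIP1, at 55 bases before the start, BCL2, BCL2L1 and BAX. The E2F letters TTTGGCGC or TTTCCCGC were found in 2.27% of windows and in no member's window. These are matches of letters, and binding was not measured in these libraries.

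**Figure D1:**
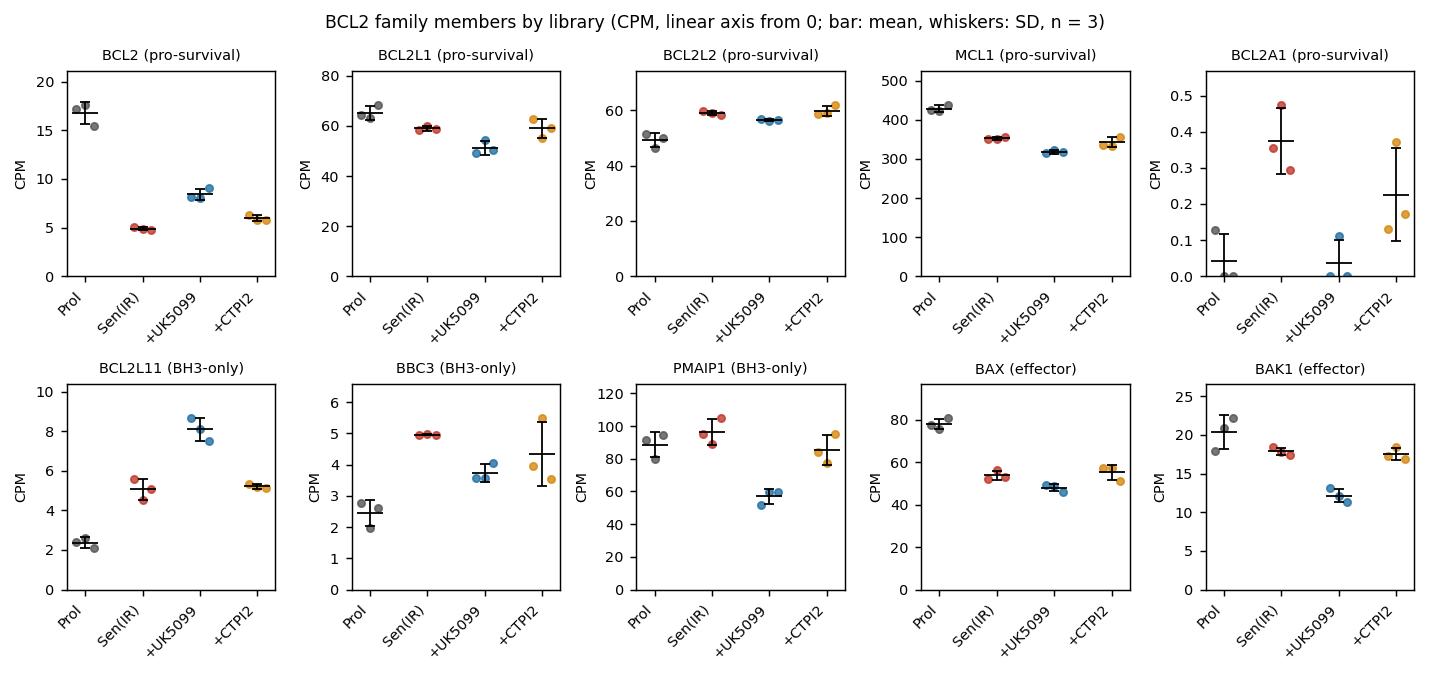
Each panel plots the CPM of 1 member (y axis, linear from 0) in the 12 libraries by group (x axis), with points for libraries, a bar for the mean and whiskers for the SD (n = 3). BCL2 is lowest in Sen(IR) and BCL2L11 is highest with UK5099, where PMAIP1 and BAK1 sit below every other library.

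Levels were set side by side between genes only after division by exon length (CPM per kb of GENCODE v44 exon model). In Sen(IR), MCL1 had the highest level of the members, at 56.8 ± 0.573 CPM per kb. PMAIP1 followed at 44.01 ± 3.69, then BAX at 20.8 ± 0.869, BCL2L1 at 14.1 ± 0.228, BCL2L2 at 12.2 ± 0.163 and BAK1 at 8.08 ± 0.224. Well below these stood BBC3 at 1.56 ± 0.00619 CPM per kb, BCL2L11 at 0.75 ± 0.0787 and BCL2 at 0.389 ± 0.0126, with BCL2A1 at 0.377 ± 0.0918. BCL2 and BCL2A1 were the only neighbours in this order whose levels overlapped within their SD. The gene that gives the family its name was among its least abundant transcripts in these fibroblasts. MCL1 made up 71.8% ± 0.461 of the summed level of the 4 tested pro-survival genes in Prol and between 66.3 and 68.5% in every irradiated library. BCL2 made up 1.39% ± 0.124 in Prol and 0.466% ± 0.0165 in Sen(IR). Exon models hold every annotated isoform, so these lengths are upper limits on transcript length.

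Sen(IR) was compared with Prol to ask how the family's transcripts stand in senescent cells. Of the 9 members tested, 4 were called, meaning that edgeR's quasi-likelihood test gave a Benjamini-Hochberg adjusted p under 0.05 over all genes and the log2 fold change exceeded 0.5 in either direction. BCL2 and BAX fell, and BCL2L11 and BBC3 rose. Over all genes tested, 47.2% were called in this comparison, 24.8% higher and 22.4% lower, so 4 of 9 is close to the background. Without the fold limit, 7 of 9 members passed against 68.7% of all genes. The libraries of Prol and Sen(IR) did not overlap for 7 of 9 members and for 70.9% of all genes. The members' median log2 fold change was -0.15, beside 0.01 over all genes.

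BCL2 (ENSG00000171791, chr18:63123346-63320128, minus strand, GRCh38) had 17.2, 17.6 and 15.5 CPM in Prol and 5.07, 4.88 and 4.76 in Sen(IR). The Prol libraries all lay above the Sen(IR) libraries. The difference was -1.77 on the log2 scale (SE 0.11, 3.41-fold lower, adjusted p = 1.45e-12), the lowest of the 9 members. The other pro-survival genes differed much less. MCL1 (chr1:150560895-150579738, minus strand), whose short-lived product is a main partner of NOXA, had 424, 423 and 438 CPM in Prol and 352, 350 and 357 in Sen(IR). That is a log2 difference of -0.28 (SE 0.05, adjusted p = 1.11e-05), past the p threshold but under the fold limit. BCL2L1 (chr20:31664452-31723989, minus strand), the gene for BCL-xL, had 63.1 to 68.4 CPM in Prol and 58.3 to 60.1 in Sen(IR), a log2 difference of -0.15 (SE 0.06, adjusted p = 0.0394). BCL2L2 (chr14:23298790-23311751, plus strand), the gene for BCL-w, went the other way, with 46.4 to 51.3 CPM in Prol and 58.3 to 59.9 in Sen(IR), a log2 difference of 0.26 (SE 0.06, adjusted p = 2.54e-04). None of these 3 passed the fold limit. In BCL2L1, 41.34% of the exon bases are shared with the antisense gene ABALON, and in BCL2L2 24.81% are shared with the read-through gene BCL2L2-PABPN1 and with neighbours on the opposite strand. The sources used here do not say whether counting used strand, so both levels are uncertain for bases shared across strands. BCL2L2-PABPN1 lies on the strand of BCL2L2, so the use of strand would not separate the bases they share.

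BCL2A1 (chr15:79960892-79971196, minus strand), an NF-kB target that is abundant in leukocytes, was near the limit of detection. Its counts were 3, 0 and 0 in Prol, 8, 10 and 6 in Sen(IR), 0, 3 and 0 with UK5099, and 3, 9 and 4 with CTPI2. The Sen(IR) libraries were all above those of Prol and of UK5099. In the comparisons with Prol and with UK5099, the mean CPM of Sen(IR) was set against the other group's floor of 3 counts per library. It was 3.05-fold the floor of Prol and 3.2-fold the floor of UK5099. These ratios rest on 6 to 10 counts per Sen(IR) library and carry no interval. An exact two-sided permutation test gave p = 0.1 for each of these 2 comparisons, the smallest that 3 libraries against 3 can give. By the same exact permutation test, CTPI2 against Sen(IR) gave p = 0.3, and CTPI2 against Prol and UK5099 against CTPI2 each gave p = 0.1. In CPM the CTPI2 libraries lay above those of Prol and of UK5099. The lowest CTPI2 count, 3, equalled the highest count of each. A fit without the filter, over 34457 genes, called BCL2A1 in Sen(IR) against Prol and UK5099 against Sen(IR) (edgeR adjusted p = 0.00422 and 0.00538). It did not call CTPI2 against Prol (0.0534) or UK5099 against CTPI2 (0.0662). Its fitted changes at such counts depend on the prior count. Of the 6 leukocyte markers, PTPRC, ITGAM, CD3E and CD79A had means of at most 0.274 CPM in any group. CD14 stood at 0.192 ± 0.0564 CPM in Prol, 3.32 ± 0.389 in Sen(IR), 2.57 ± 0.436 with UK5099 and 4.28 ± 0.644 with CTPI2. The sum of all 6 markers lay between 0.902 and 1.49 CPM in Prol, between 5.25 and 5.61 in Sen(IR), between 4.11 and 4.26 with UK5099, and between 5.2 and 6.85 with CTPI2. Their part in the BCL2A1 counts was not tested.

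Among the BH3-only genes, BCL2L11 (ENSG00000153094, chr2:111119378-111168444, plus strand), whose product BIM binds all the pro-survival proteins, had 2.39, 2.62 and 2.08 CPM in Prol and 5.56, 4.503 and 5.10 in Sen(IR). Every Sen(IR) library lay above every Prol library. It rose by 1.10 on the log2 scale (SE 0.15, 2.15-fold, adjusted p = 9.48e-07). BBC3 (ENSG00000105327, chr19:47220822-47232766, minus strand), the p53 target that encodes PUMA, had 2.77, 1.98 and 2.60 CPM in Prol and 4.94, 4.98 and 4.95 in Sen(IR). It rose by 1.01 (SE 0.18, 2.02-fold, adjusted p = 3.50e-05), again without overlap. Both rest on few reads, 46 to 70 counts per Prol library for BBC3 and 56 to 61 for BCL2L11. MIR4435-2HG on the opposite strand shares 10.78% of the BCL2L11 exon bases. PMAIP1 (ENSG00000141682, chr18:59899996-59904305, plus strand), also a p53 target, encodes NOXA and was by far the most abundant of the 3. It had 91.5, 79.8 and 94.8 CPM in Prol and 95.03, 88.8 and 105 in Sen(IR). These ranges overlapped, and the log2 difference of 0.12 (95% interval -0.05 to 0.28, adjusted p = 0.205) did not pass.

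The effectors did not rise in Sen(IR). BAX (ENSG00000087088, chr19:48954815-48961798, plus strand), another p53 target, had 77.8, 75.8 and 80.8 CPM in Prol and 52.0, 56.4 and 53.2 in Sen(IR). It fell by 0.54 on the log2 scale (SE 0.06, 1.45-fold lower, adjusted p = 4.70e-08), with no overlap between the groups. Its call rests on the scaling, since with upper-quartile factors, an alternative added after the data were seen, the difference was -0.42 and under the fold limit. That scaling moved the median of all genes in this comparison by 0.121. BAK1 (ENSG00000030110, chr6:33572547-33580293, minus strand) had 17.9, 21.0 and 22.2 CPM in Prol and 18.4, 17.7 and 17.5 in Sen(IR). The groups overlapped, and the log2 difference of -0.19 (95% interval -0.37 to -0.0044, adjusted p = 0.0645) was not called.

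UK5099 was compared with untreated senescent cells to ask what blocking pyruvate entry into mitochondria does to these transcripts. Again 4 of the 9 members were called, beside 20.8% of all genes tested, 8.76% higher and 12.1% lower. BCL2 and BCL2L11 rose, and PMAIP1 and BAK1 fell. Past the p threshold alone were 7 of 9 members against 45.4% of all genes. For all 9 the 3 UK5099 libraries lay wholly on one side of the 3 Sen(IR) libraries, as they did for 56.6% of all genes. The median log2 fold change was -0.16 over the members and 0.01 over all genes.

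BCL2 had 8.11, 8.09 and 9.11 CPM with UK5099, all above the 4.76 to 5.07 of Sen(IR) and below the 15.5 to 17.6 of Prol. It rose by 0.78 on the log2 scale (SE 0.11, 1.72-fold, adjusted p = 6.10e-06). It stayed 1.98-fold below Prol (log2 difference -0.99, SE 0.10, adjusted p = 5.25e-09). The remaining pro-survival genes had slightly lower values with UK5099, none past the fold limit. MCL1 had 314 to 324 CPM, a log2 difference of -0.15 (SE 0.05, adjusted p = 0.0101). BCL2L1 had 49.1 to 54.3 CPM, a difference of -0.20 (SE 0.06, adjusted p = 0.00924). BCL2L2 had 56.2 to 56.8 CPM, a difference of -0.07 (95% interval -0.18 to 0.05, adjusted p = 0.359).

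BCL2L11 had 8.65, 8.09 and 7.52 CPM with UK5099, above all 3 Sen(IR) libraries, whose highest was 5.56. It rose by 0.67 on the log2 scale (SE 0.13, 1.60-fold, adjusted p = 1.69e-04) on top of its rise with irradiation, and stood 3.43-fold above Prol (log2 difference 1.78, SE 0.14, adjusted p = 1.21e-10). PMAIP1 went down, with 52.0, 59.9 and 59.8 CPM against 88.8 to 105 in Sen(IR). It fell by 0.75 (SE 0.08, 1.68-fold lower, adjusted p = 1.17e-07), and its UK5099 libraries were also below the lowest Prol library, 79.8 CPM (log2 difference -0.63 from Prol, adjusted p = 3.55e-07, and -0.49 with upper-quartile factors, under the fold limit). BBC3 had 3.56, 3.56 and 4.07 CPM, below Sen(IR) in every library. Its log2 difference of -0.41 (95% interval -0.76 to -0.06) had an adjusted p of 0.0544 by edgeR and was not called. The 3 BH3-only members therefore did not move as a block: 1 rose, 1 fell and 1 missed the threshold. Outside the members, the BH3-only genes BID and BMF were called higher in Sen(IR) than in Prol (log2 differences 0.80 and 0.83, edgeR adjusted p = 3.17e-11 and 5.92e-04). Both were called lower with UK5099 than in Sen(IR), as given below. Mean CPM in Prol, Sen(IR) and with UK5099 was 41.1, 71.4 and 37.2 for BID and 2.32, 4.11 and 2.38 for BMF. BAD was called in neither comparison (log2 differences 0.11 and -0.19, edgeR adjusted p = 0.300 and 0.112).

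BAK1 had 13.1, 12.1 and 11.3 CPM with UK5099, all below the 17.5 to 18.4 of Sen(IR). It fell by 0.56 on the log2 scale (SE 0.09, 1.47-fold lower, adjusted p = 3.41e-05). BAX had 49.2, 49.1 and 46.1 CPM, also below every Sen(IR) library, but its log2 difference of -0.16 (SE 0.06, adjusted p = 0.0342) was under the fold limit. Against Prol, both effectors were lower with UK5099, BAX by a log2 difference of -0.70 (SE 0.06, adjusted p = 4.79e-10) and BAK1 by -0.75 (SE 0.09, adjusted p = 1.38e-07). In the 6 members called between UK5099 and Prol, beside 53.1% of all genes tested (26.9% higher and 26.2% lower), BCL2L11 and BBC3 were higher and BCL2, PMAIP1, BAX and BAK1 lower. BBC3 was called by a log2 difference of 0.60 (adjusted p = 0.00538), which was 0.47 and under the fold limit without Prol replicate 2. The comparisons with Sen(IR), and likewise those with Prol, share their control libraries and are not independent of each other.

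**Figure D2:**
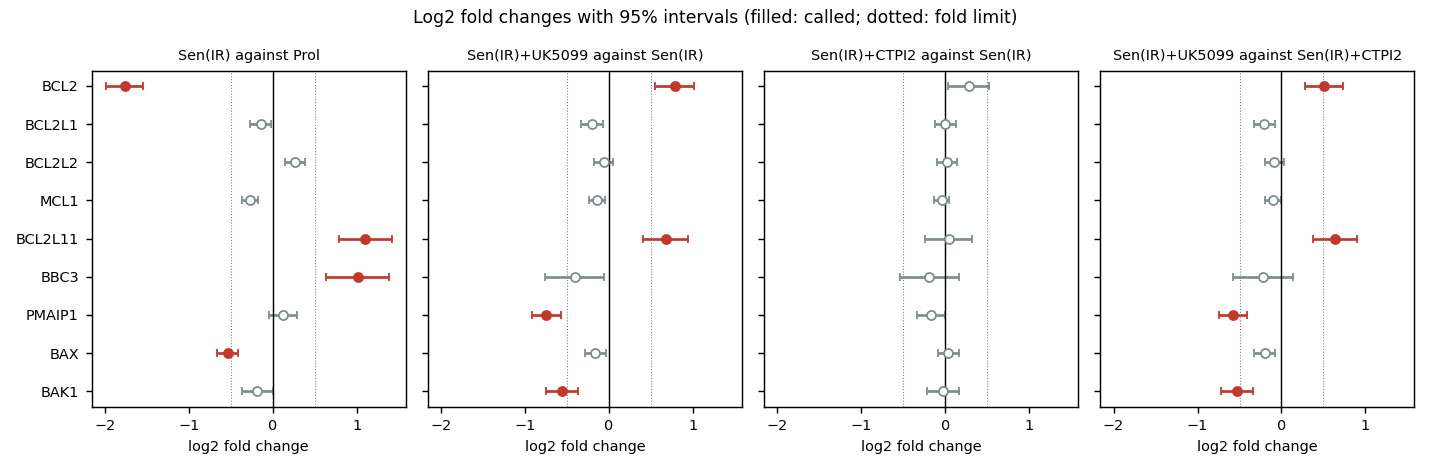
Each panel plots the log2 fold change of the 9 tested members (x axis, with 95% intervals) in 1 comparison, filled where called, with dotted lines at the fold limit of 0.5 in either direction. The called members are 4, 4, 0 and 4 in the panels from left to right, and in the CTPI2 panel the intervals reach from -0.54 to 0.52.

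CTPI2 was compared with Sen(IR) in the same way, for a block on citrate export. None of the 9 members was called by edgeR, where 0.166% of all genes tested were. DESeq2 also called 0, and 2 members had an unadjusted p under 0.05 by edgeR. These were BCL2 and PMAIP1, with no share of all genes at that unadjusted threshold to set beside them. BCL2 had 6.32, 5.74 and 5.80 CPM, above all 3 Sen(IR) libraries. The log2 difference was 0.28 (95% interval 0.03 to 0.52, adjusted p = 0.607). It was the only tested member whose libraries did not overlap, beside 15.1% of all genes. PMAIP1 had 83.9, 77.3 and 95.3 CPM, overlapping Sen(IR), with a log2 difference of -0.17 (95% interval -0.34 to -0.003, adjusted p = 0.672). The fitted differences of the 9 ran from -0.19 for BBC3 to 0.28 for BCL2, and their 95% intervals reached from -0.54 to 0.52. The width differed between members, from -0.14 to 0.05 for the abundant MCL1 to -0.54 to 0.16 for BBC3. BBC3 was the least even, with 3.95, 5.49 and 3.55 CPM, on both sides of the 4.94 to 4.98 of Sen(IR). BCL2L11, at 5.35, 5.16 and 5.11 CPM, and BAK1, at 17.3, 18.4 and 16.9 CPM, lay within or beside the range of Sen(IR), with log2 differences of 0.04 (95% interval -0.24 to 0.32) and -0.03 (-0.21 to 0.16). Against Prol, 4 members were called with CTPI2, beside 46.8% of all genes: BCL2 (log2 difference -1.49) and BAX (-0.50) were lower, and BCL2L11 (1.14) and BBC3 (0.82) higher. BAX sat at the fold limit and was under it with DESeq2 (-0.49), RLE factors (-0.49), upper-quartile factors (-0.39), and without Prol replicate 3 (-0.47) or CTPI2 replicate 3 (-0.46).

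The 2 inhibitors were then set against each other directly, at doses that differ. Between UK5099 and CTPI2, 4 of the 9 members were called, beside 19.9% of all genes tested, 8.20% higher and 11.7% lower with UK5099. BCL2 was higher with UK5099 by 0.50 on the log2 scale (SE 0.11, 1.42-fold, adjusted p = 6.27e-04), and BCL2L11 by 0.63 (SE 0.13, 1.55-fold, adjusted p = 2.94e-04). PMAIP1 was lower with UK5099 by a log2 difference of -0.58 (SE 0.08, adjusted p = 5.11e-06) and BAK1 by -0.53 (SE 0.09, adjusted p = 6.36e-05). The libraries of the 2 inhibitors were apart for these 4 and for 8 of the 9 members in all, beside 53.6% of all genes. On the adjusted p alone 6 of 9 passed, beside 44.5% of all genes. The differences of BCL2 and BAK1 sit close to the fold limit. Without UK5099 replicate 3 the count of called members was 2, with BCL2 at 0.44 and BAK1 at -0.48. Without CTPI2 replicate 2 it was also 2, with BCL2 at 0.48 and BAK1 at -0.49. Without CTPI2 replicate 3 it was 2 again, with BCL2 at 0.49 and PMAIP1 at -0.49. In all of these the adjusted p remained under the threshold and only the fold limit was missed. BCL2L1 (log2 difference -0.20, adjusted p = 0.00938) and BAX (-0.20, adjusted p = 0.0106) passed on p but not on fold. MCL1 differed by -0.10 (95% interval -0.20 to -0.01, adjusted p = 0.0667), BCL2L2 by -0.08 (-0.20 to 0.03) and BBC3 by -0.22 (-0.57 to 0.14).

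The balance among the tested members can be described by ratios, which do not depend on how a library is scaled. Relatives outside the members are not in the sums. Among these, BID stood at 16.15 CPM per kb in Sen(IR) and 8.41 with UK5099. BOK stood at 8.72 and 9.13, and BAD at 8.38 and 7.35, in the same order. The summed length-scaled level of the 4 tested pro-survival genes was 95.9 ± 2.204 CPM per kb in Prol, 83.4 ± 0.334 in Sen(IR), 75.7 ± 1.38 with UK5099 and 82.0 ± 2.69 with CTPI2. That of the BH3-only and effector members was 81.1 ± 4.73, 75.2 ± 3.14, 52.6 ± 1.52 and 70.5 ± 2.29 in the order Prol, Sen(IR), UK5099 and CTPI2. The log2 ratio of the second sum to the first was -0.24 ± 0.05 in Prol, -0.15 ± 0.05 in Sen(IR), -0.53 ± 0.02 with UK5099 and -0.22 ± 0.0015 with CTPI2. The UK5099 libraries, at -0.54, -0.51 and -0.52, were the lowest of the 12. These sums follow their most abundant genes, MCL1 and PMAIP1. Without those 2, the difference between Sen(IR) and Prol in the log2 ratio turned from positive to -0.36, and that between UK5099 and Sen(IR) shrank to -0.12. A sum of transcripts is a description of RNA, and no test was made on it.

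Ratios of single members moved in their own ways. The BCL2L11 to BCL2 ratio, per length, was 0.263 ± 0.0136 in Prol and 1.93 ± 0.176 in Sen(IR), since the one rose while the other fell. With UK5099, where both rose, it was 1.80 ± 0.233, and with CTPI2 1.64 ± 0.0493. The UK5099 range of 1.54 to 1.99 overlapped the Sen(IR) range of 1.73 to 2.05. The BAX to BCL2 ratio went from 22.8 ± 2.33 in Prol to 53.6 ± 3.24 in Sen(IR), and was 27.9 ± 2.84 with UK5099 and 45.3 ± 3.03 with CTPI2. The PMAIP1 to MCL1 ratio was 0.589 ± 0.0448 in Prol, 0.775 ± 0.0571 in Sen(IR), 0.511 ± 0.0352 with UK5099 and 0.71 ± 0.0499 with CTPI2. The BAX to BAK1 ratio was 3.31 ± 0.35 in Prol, 2.58 ± 0.154 in Sen(IR), 3.39 ± 0.152 with UK5099 and 2.70 ± 0.118 with CTPI2. In the last 3 ratios, no UK5099 library overlapped a Sen(IR) library. With CTPI2 the BCL2L11 to BCL2 ratio, at 1.58 to 1.68, also lay below its Sen(IR) range. So did the BAX to BCL2 ratio, at 43.1 to 48.8 with CTPI2 against 50 to 56.3 in Sen(IR). The PMAIP1 to MCL1 and BAX to BAK1 ratios with CTPI2 overlapped those of Sen(IR). No share over other pairs of genes stands beside these separations.

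**Figure D3:**
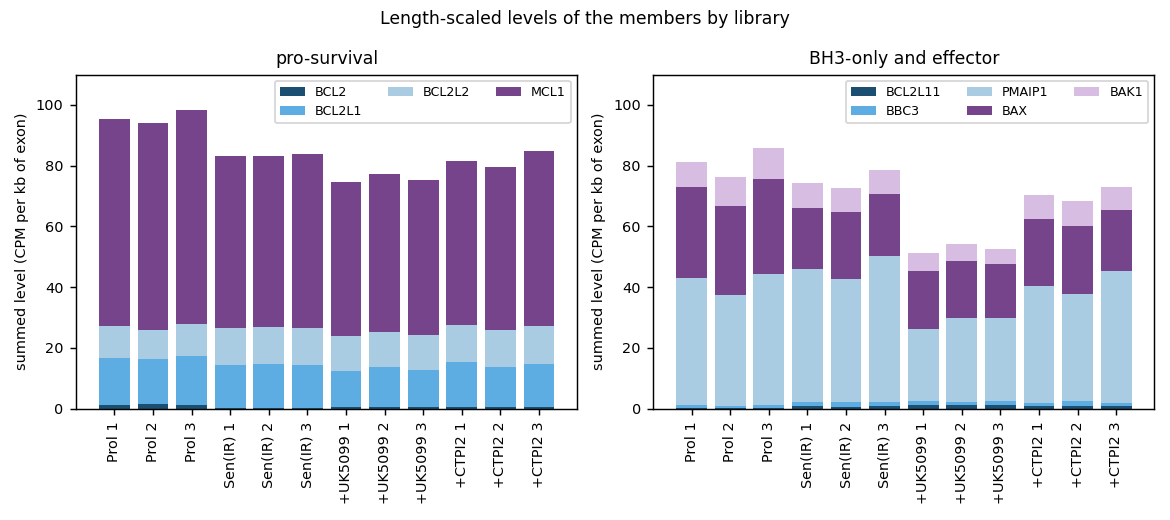
Stacked bars give the length-scaled level (y axis, CPM per kb of exon, from 0) of the 4 tested pro-survival genes on the left and of the 5 BH3-only and effector genes on the right, in each of the 12 libraries (x axis). MCL1 fills most of each left bar, and on the right the 3 UK5099 bars, 51.1 to 54.2, are the shortest.

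The rest of the pathway was read from 50 further genes in 7 lists, of which 44 were tested. In Sen(IR) against Prol 20 of them were called, 12 higher and 8 lower, beside 47.2% of all genes tested, 24.8% higher and 22.4% lower. These shares are near each other, and the counts by list that follow are descriptions. Of the other BCL2 relatives 5 of 8 tested rose and 1 fell. BNIP3L, a mitophagy receptor, rose by 1.71 on the log2 scale (SE 0.08, adjusted p = 5.13e-15), from 98.1 ± 14.5 to 322 ± 10.8 CPM. Its relative BNIP3 rose by 0.83 (adjusted p = 4.89e-12), and BCL2L12 fell by 2.36 (adjusted p = 4.36e-11). Of the death receptor arm, which triggers caspases from the cell surface, 5 of 7 were called higher and none lower, beside 24.8% of all genes called higher. The 5 include CFLAR (log2 difference 0.65, edgeR adjusted p = 1.71e-09). FADD (-0.28, adjusted p = 0.00768) and CASP8 (-0.25, adjusted p = 0.00749) went the other way. Their Sen(IR) libraries lay below those of Prol, and only the fold limit was missed. TNFRSF10B, the TRAIL receptor DR5, went from 174 ± 10.3 to 420 ± 2.15 CPM (log2 difference 1.27, adjusted p = 8.07e-16), and CASP10 rose by 2.07 (adjusted p = 7.49e-05) from a low level of 0.274 ± 0.137 CPM.

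Of 10 genes of caspase activation, downstream of the membrane, none rose and 2 fell, beside 22.4% of all genes called lower. These were APAF1, the scaffold of the apoptosome, by a log2 difference of -0.77 (adjusted p = 3.65e-08), and CYCS, cytochrome c, by -0.69 (adjusted p = 5.04e-08). Of 6 inhibitors of apoptosis 1 rose and 3 fell. BIRC3 (cIAP2), an NF-kB target, rose by 1.54 (adjusted p = 4.43e-08). BIRC5 (survivin), also a mitotic gene, fell by 3.94 (adjusted p = 1.37e-18). NAIP fell by 1.32 (adjusted p = 0.0211), a call lost without Prol replicate 1 (adjusted p = 0.115), Sen(IR) replicate 2 (0.0722) or Sen(IR) replicate 3 (0.0857). Single genes were called in the remaining lists: the channel gene VDAC3 fell by 0.65 (adjusted p = 2.99e-10), E2F1 fell by 2.08 (adjusted p = 3.38e-12), and BTRC, a ubiquitin ligase subunit that marks MCL1 for degradation, rose by 1.06 (adjusted p = 6.06e-13).

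With UK5099 13 of the 44 were called against Sen(IR), 3 higher and 10 lower, beside 20.8% of all genes tested, 8.76% higher and 12.1% lower. BIRC3 had 10.5, 9.20 and 8.14 CPM in Sen(IR) and 0.331, 0.668 and 0.504 with UK5099, the lowest of any of the groups. It fell by 4.18 on the log2 scale (SE 0.23, 18.1-fold lower, adjusted p = 1.38e-12). BIRC5 fell by 3.70 (SE 0.20, adjusted p = 7.49e-13), to 0.846 ± 0.424 CPM, alongside the fall of MKI67 given above. The BH3-only gene BID, which links caspase-8 to the mitochondrion, had 71.5, 72.7 and 70.0 CPM in Sen(IR) and 38.4, 37.8 and 35.3 with UK5099. It fell by 0.94 (SE 0.06, adjusted p = 7.94e-12), and BMF, a further BH3-only gene, fell by 0.79 (SE 0.19, adjusted p = 0.00165). The death receptors FAS (log2 difference -0.65, adjusted p = 6.11e-10) and TNFRSF10B (-0.64, adjusted p = 4.99e-10) fell as well. Mean CPM in Prol, Sen(IR) and with UK5099 was 63.7, 113 and 71.9 for FAS and 174, 420 and 270 for TNFRSF10B.

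The initiator caspase CASP9 rose by 0.93 (SE 0.11, adjusted p = 2.24e-07), from 5.69 ± 0.0498 to 10.9 ± 0.513 CPM. CASP6 rose by 0.54 and CYCS fell by 0.52, both close to the fold limit. CASP6 was under it without UK5099 replicate 3 (0.48), and CYCS without Sen(IR) replicate 3 (-0.45) or UK5099 replicate 1 (-0.46). FOXO3, whose family of factors is known to activate BCL2L11, had 85.5, 93.1 and 86.4 CPM in Sen(IR) and 165, 147 and 165 with UK5099. It rose by 0.85 (SE 0.06, adjusted p = 1.58e-10). NFKB1, a subunit of NF-kB, fell by 0.57 (SE 0.07, adjusted p = 3.37e-07). The matches of FOXO letters in the BCL2L11 window and these levels were measured apart, and no link between them was tested.

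With CTPI2 0 of the 44 were called against Sen(IR) by edgeR, beside 0.166% of all genes tested, and DESeq2 called 0. By edgeR, 3 had an unadjusted p under 0.05 (BAD, TNFRSF10B and HUWE1, named after their values were seen). No share of all genes at that unadjusted threshold stands beside these 3. Between UK5099 and CTPI2 11 of the 44 were called, 3 higher and 8 lower with UK5099, beside 19.9% of all genes tested, 8.20% higher and 11.7% lower. BIRC3 was lower with UK5099 than with CTPI2 by a log2 difference of -3.87 (adjusted p = 8.75e-12) and BID by -0.92 (adjusted p = 1.46e-11), and FOXO3 was higher by 0.80 (adjusted p = 4.45e-10) and CASP9 by 0.71 (adjusted p = 7.15e-06).

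**Figure D4:**
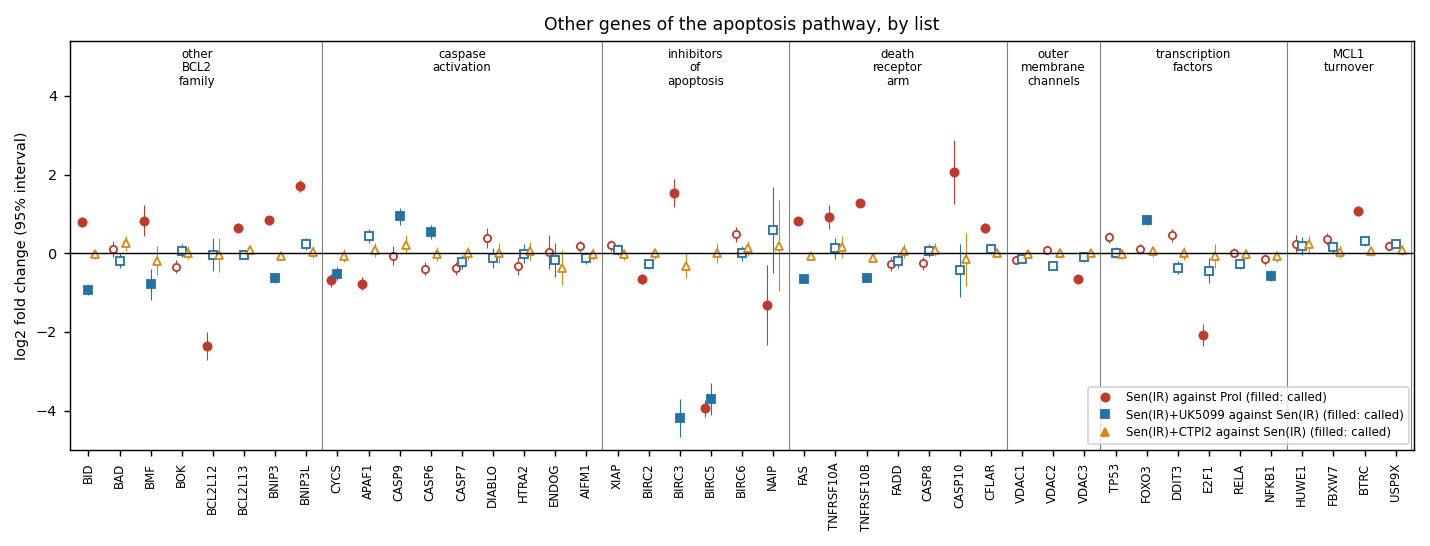
Log2 fold changes (y axis, 95% intervals) of 43 of the 44 tested pathway genes (x axis, grouped by list) are plotted for Sen(IR) against Prol (circles), UK5099 against Sen(IR) (squares) and CTPI2 against Sen(IR) (triangles), filled where called. BIRC3 lies at 1.54 and -4.18 in these comparisons with Prol and with UK5099, and all triangles are open.

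For the member of each role with the widest range of group means, the genes most alike in log2 CPM over the 12 libraries were sought, as a description. BCL2 was most like EED (Pearson r = 0.988), TOX (0.988) and CNTRL (0.986). TOX, for one, stood at 46.5 CPM in Prol, 8.18 in Sen(IR), 15.3 with UK5099 and 10.4 with CTPI2. BCL2L11 was most like FAM102A (r = 0.993), GPR153 (0.993) and TM7SF2 (0.992), the last at 1.61, 5.5, 11.8 and 5.91 CPM in the same order of groups. BAK1 was most like SEC61B, CASP1 and XBP1 (each r = 0.974), and CASP1 stood at 76.1, 57.3, 31.0 and 55.1 CPM. The 12 points share 4 conditions, so such values are reached by many genes that differ between the same groups.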

How the data were processed

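Bulk RNA of MRC5 fibroblasts was measured in 12 libraries, 4 groups of 3, mapped to groups by their labels. Reads were trimmed (Trimmomatic 0.36) and mapped to GRCh38 (STAR 2.5.2b) by the authors, who counted uniquely mapped exon reads for each gene in featureCounts (Subread 1.5.2). The deposited table holds these raw counts. The annotation release and the use of strand are not given in the sources used here. Totals of 20597736 to 28245693 counts per library limit genes near the floor of 3 counts.

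Counts were fitted in R 4.3.3 with edgeR 4.0.16 (filterByExpr, TMM, quasi-likelihood test) with all 12 libraries in a single model that had no term for replicate number. Benjamini-Hochberg adjustment ran over 16251 genes. Calls needed both an adjusted p under 0.05 and a log2 fold change beyond 0.5 in either direction. SE is the absolute log2 fold change divided by the square root of F. Positions and exon lengths came from GENCODE v44, in which 56410 of the 57500 identifiers were found. The scripts were tested on simulated data. No other comparison of groups was made, and the study's protein and chromatin measurements were not analysed here.

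The members and the lists were chosen with earlier results of these data known. Text names all 10 members, and from each list up to 2 called genes per direction with the largest change in each comparison, plus 3 genes most alike to 1 member of each role. BAD, BOK, HUWE1, CFLAR, FADD and CASP8 were named outside this rule. One pathway gene that is counted in the lists is not reported here by name. Alternatives were DESeq2 1.42.0, RLE and upper-quartile factors, no filter, only the 2 groups compared, a replicate block, other fold limits, the unadjusted p, and leaving out each library.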

Additional observations from a re-analysis of the deposited data

How the results depend on the processing

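The number of members called stayed within 1.5 times of that reported, in each of the 6 comparisons, under DESeq2, RLE and upper-quartile factors, no filter, the unadjusted p, and fits of only the compared groups. With the log2 fold limit raised to 1, members called were 0 for UK5099 against Sen(IR), 0 for UK5099 against CTPI2, 1 for UK5099 against Prol and 2 for CTPI2 against Prol, and pathway genes called were 9 for Sen(IR) against Prol, 2 for UK5099 against Sen(IR) and 2 for UK5099 against CTPI2. With no fold limit, members called were 7 for Sen(IR) against Prol, 7 for UK5099 against Sen(IR) and 8 for CTPI2 against Prol. Pathway genes called were 38 for Sen(IR) against Prol, 24 for UK5099 against Sen(IR) and 26 for UK5099 against CTPI2. Of all genes, 68.7%, 45.4% and 44.5% passed in these last 3 comparisons. No share of all genes stands beside the count for CTPI2 against Prol or those at a limit of 1, so these cannot be set against a background. Leaving out 1 library gave 2 to 4 members for UK5099 against CTPI2. Small differences changed sign. With CTPI2 against Sen(IR), leaving out 1 library moved BCL2L1 to between -0.045 and 0.0466, BCL2L11 to between -0.0358 and 0.117 and BCL2L2 to between -0.00541 and 0.0336. PMAIP1 between CTPI2 and Prol was 0.0577 with upper-quartile factors and ran from -0.147 to 0.0143 with 1 library left out. The log2 ratio of the summed levels without MCL1 and PMAIP1 gave -0.36 for Sen(IR) against Prol, -0.12 for UK5099 and -0.00467 for CTPI2, each against Sen(IR). MCL1 and PMAIP1 hold the largest shares of those sums. The cause of the other shifts was not tested. Same-numbered libraries did not deviate together (correlations of deviations -0.0511 to 0.0423 over 18 pairs). Differently numbered libraries of other groups gave -0.0622 to 0.102 over 36 pairs. These values cannot show whether a number marks a shared experiment, and the labels do not say. A replicate block left the number of members called at 4 for Sen(IR) against Prol, 4 and 0 for UK5099 and CTPI2 against Sen(IR), and 4 for UK5099 against CTPI2.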
